A study of Mus musculus with 4 samples.

Results

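The 9 genes described here encode transcription factors by which the layers of the cerebral cortex are told apart, and all 9 were found by symbol among the 21091 entries of the deposited tables. *Tbr1*, *Bcl11b*, *Fezf2*, *Sox5* and *Foxp2* are known for the deep layers, and *Cux1*, *Cux2*, *Pou3f2* and *Rorb* for the upper layers. They were measured by RNA-seq in neural progenitors from embryos on a C57BL/6 background, isolated at embryonic day 11 (E11) or 14 (E14) and grown as neurospheres in serum-free medium with EGF and FGF for 3 days. At each stage there was 1 control library (CTL) and 1 library with a conditional knockout of *Stat3* (*Stat3* cKO). In the *Stat3* cKO, Cre recombinase under a rat Nestin promoter and enhancer removes floxed exons that encode the SH2 domain of STAT3. The labels (WT) and the RNA-seq methods call the control wild type. The animal methods instead describe controls with Nestin-Cre and 1 floxed *Stat3* allele, and these were taken as the same group. If the control embryos had no Cre, Cre and the loss of *Stat3* cannot be told apart in the genotype ratios. How many embryos went into a library is not given in the sources used here.

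The excitatory neurons of the cortex are born from progenitors of the dorsal telencephalon in a fixed order, with the deep layers first and the upper layers last. The deep layer factors act in part by holding each other's territories in check. FEZF2 and BCL11B (also called CTIP2) direct neurons to project below the cortex, TBR1 marks the neurons that project to the thalamus, and SOX5 sets the timing of these fates. Several of the genes are not limited to cortical neurons. *Bcl11b* and *Foxp2* are also known from the striatum, *Tbr1* from Cajal-Retzius cells, and *Pou3f2*, *Cux1* and *Cux2* from dividing progenitors. The methods name embryonic brains and no region of them, so a level given here is the sum over all cells that a neurosphere culture holds. In such bulk libraries, fewer cells of a type and less RNA per cell cannot be told apart.

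Levels are FPKM, the fragments of a gene scaled by transcript length and by all mapped fragments of the library, so they can be compared between genes. With 1 library in each group no spread between replicates can be set against a difference, and no test between groups was made. A gene is here said to have risen or fallen where its level changed at least 2-fold. For the 4 libraries, between 39100000 and 48200000 mapped fragments were estimated from the smallest FPKM values. *Stat3* itself was at 7.41 FPKM at E11 and 27.6 at E14 in CTL, while *Stat3* cKO had 6.74 and 9.55. It thus fell with the knockout at E14, to 0.346 times CTL, while the ratio was 0.911 at E11. A value for the whole gene does not show whether the floxed exons were lost. The Y-linked *Ddx3y* stood at 25.1 FPKM in the E14 knockout library and 0.0569 in its control, and it was listed at 0 in the E11 libraries. The sex of the embryos and the genotype therefore cannot be told apart at E14. None of the 9 genes lies on a sex chromosome.

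Because STAT3 binds DNA directly, the promoters of the layer genes were read for its site TTCNNNGAA, in which N is any base and which reads the same on both strands. RefSeq windows of 300 bases, with 50 of them after the transcription start, were at hand for 8 of the 9 genes, 10 windows in all. None of the 10 held the site, which was present in 8.30% of 32851 windows of all genes. This says only that these letters are not in these windows. The 250 bases before the start are shown for the genes whose genotype ratios at E14 were the lowest and the highest, with each CG dinucleotide in capitals. They lie at chr2:61804203-61804452 (plus strand) and at chr5:122049852-122050101 (minus strand) of GRCm38.p6, the second being 1 of 2 windows of *Cux2*.
Tbr1: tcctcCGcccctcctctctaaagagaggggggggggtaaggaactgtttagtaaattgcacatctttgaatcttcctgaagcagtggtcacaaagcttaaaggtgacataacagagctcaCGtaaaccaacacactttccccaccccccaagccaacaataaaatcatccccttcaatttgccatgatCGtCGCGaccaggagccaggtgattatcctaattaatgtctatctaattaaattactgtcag
Cux2: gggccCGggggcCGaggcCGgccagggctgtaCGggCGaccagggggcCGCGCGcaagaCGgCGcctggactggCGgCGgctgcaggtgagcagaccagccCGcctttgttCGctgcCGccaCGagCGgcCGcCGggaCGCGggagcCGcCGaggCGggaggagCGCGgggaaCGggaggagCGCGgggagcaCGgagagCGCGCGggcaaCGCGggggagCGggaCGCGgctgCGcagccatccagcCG
The stretch of *Tbr1* had 5 CG dinucleotides and a GC content of 45.2%, and that of *Cux2* had 40 and 80.0%. Over the 10 windows, the number of CG dinucleotides before the start ranged from 3 to 40.

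The upper layer genes *Cux1* and *Pou3f2* had the highest levels of the 9 in every library, from 16.0 to 41.1 FPKM. At E11 *Foxp2* was the next in both genotypes, with 11.8 and 12.3 FPKM. *Tbr1*, *Sox5*, *Bcl11b* and *Fezf2* followed between 3.99 and 6.63 FPKM, and *Cux2* and *Rorb* closed the order with at most 2.80. At E14 the order was another one. *Bcl11b* had taken that place, with 12.1 and 11.2 FPKM, and *Foxp2* was last. In each stage, the ranks in CTL and in *Stat3* cKO differed by at most 1 place for any of the genes. Of the neighbours that swapped places, *Sox5* and *Rorb* were close in E14 CTL with 8.04 and 7.99 FPKM, whereas *Tbr1* and *Cux2* stood at 5.84 and 2.78 there and at 3.84 and 4.17 in E14 *Stat3* cKO. With no replicates these orders cannot be settled.

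**Figure D1:**
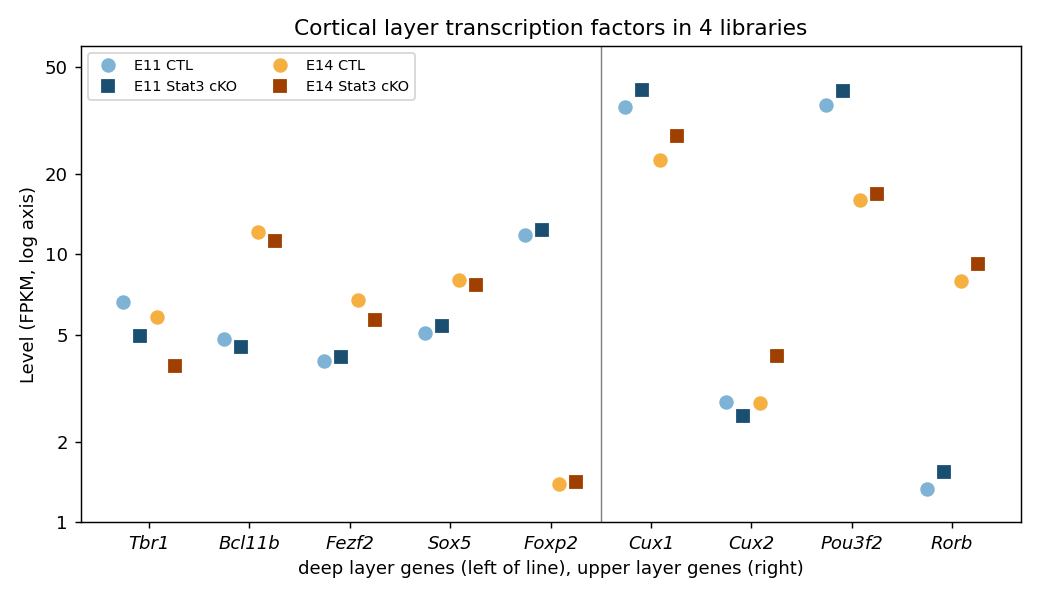
Level of each gene in FPKM on a log axis, with 1 point for each library (circles CTL, squares *Stat3* cKO, blue E11, orange E14). The points of *Foxp2* and *Rorb* fall into an E11 pair and an E14 pair far apart, while the 4 points of *Sox5*, *Cux2*, *Fezf2* and *Tbr1* each stay within 1.57-fold to 1.73-fold.

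The largest differences of the 9 genes were between stages, and 4 of them passed 2-fold in CTL and also in *Stat3* cKO, 2 upward and 2 downward. Over all genes analysed, 14.6% rose and 12.5% fell at least 2-fold from E11 to E14 in CTL, and 10.1% rose and 11.7% fell in *Stat3* cKO. The median log2 ratio of all genes was 0.21 in CTL and 0.058 in *Stat3* cKO, against 0.65 and 0.45 for the deep layer genes and -0.33 and 0.088 for the upper layer genes. Each direction held 1 deep layer and 1 upper layer gene, and neither direction was limited to one layer group. For 7 of the 9 genes, the smaller of the 2 stage ratios was still larger in size than either genotype ratio. The exceptions were *Tbr1* and *Cux2*. The share of all genes for which this holds was not counted. Over all genes too, the log2 ratios spread more widely between stages than between genotypes. Their 5th and 95th percentiles were -2.24 and 1.58 for the stage ratio in CTL, against -0.70 and 0.64 for the genotype ratio at E14.

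*Foxp2*, a forkhead repressor of neurons in the deepest cortical layer, the striatum and the cerebellum, is listed on chromosome 6 from 14851348 to 15391977. It had 11.8 FPKM (CTL) and 12.3 (*Stat3* cKO) at E11, and 1.39 and 1.41 at E14. Both E11 libraries were thus far above both E14 libraries, and the genotypes lay side by side within each stage. From E11 to E14 it fell 8.55-fold in CTL and 8.74-fold in *Stat3* cKO, and in CTL 3.44% of all genes had a log2 ratio as low or lower. Its estimated 74 fragments in E14 CTL, counted on its shortest annotated transcript, were the fewest behind any of the 36 values. The relative counting error there is at most 11.6%.

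*Rorb*, a nuclear receptor of the granular layer, is listed on chromosome 19 from 19005098 to 19185686 and moved the other way. Its levels were 1.33 FPKM at E11 and 7.99 at E14 in CTL, against 1.54 and 9.18 in *Stat3* cKO. It rose 6.02-fold in CTL and 5.94-fold in *Stat3* cKO, and 1.55% of all genes had as large a stage ratio in CTL. *Bcl11b*, the zinc finger factor of neurons that project to the spinal cord, is listed on chromosome 12 from 109148612 to 109241624. It had 4.85 FPKM at E11 and 12.1 at E14 in CTL, while *Stat3* cKO had 4.53 and 11.2. It rose 2.50-fold in CTL and 2.48-fold in *Stat3* cKO, with the stages well apart and the genotypes close. After upper-quartile scaling its log2 ratio in CTL was 0.99, just short of 2-fold.

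*Pou3f2* encodes the POU factor BRN2, which acts in progenitors as well as in migrating upper layer neurons, and is listed on chromosome 4 from 22409241 to 22415513. Its levels were 36.1 FPKM (CTL) and 40.8 (*Stat3* cKO) at E11, and 16.0 and 16.8 at E14. It fell 2.25-fold in CTL and 2.43-fold in *Stat3* cKO. *Cux1*, a cut homeobox gene (chromosome 5, 136724004 to 137043301), had 35.5 FPKM at E11 and 22.5 at E14 in CTL, against 41.1 and 27.8 in *Stat3* cKO. Both E14 values were below both E11 values, yet the stage ratios of 0.633 (CTL) and 0.676 (*Stat3* cKO) did not reach 2-fold. The locus also encodes CASP, a Golgi protein without the homeodomain, and a value for the whole gene does not separate the 2 products.

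*Fezf2* and *Sox5* had much the same pattern, with a distance of 0.13 between their centred log2 profiles, the smallest for any pair of the 9. *Fezf2*, the selector gene of subcerebral projection neurons, is listed on chromosome 14 from 13174405 to 13178379. It had 3.99 FPKM at E11 and 6.73 at E14 in CTL, while *Stat3* cKO had 4.15 and 5.68. *Sox5*, an SRY-box gene (chromosome 6, 143776944 to 144158088), had 5.11 and 5.42 FPKM at E11 in CTL and *Stat3* cKO, and 8.04 and 7.67 at E14. Both were higher in the E14 libraries than in the E11 libraries, by ratios of 1.69 and 1.57 in CTL and 1.37 and 1.41 in *Stat3* cKO, short of 2-fold.

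Between genotypes none of the 9 genes differed 2-fold at either stage. Of all genes, 1.85% rose and 1.69% fell 2-fold or more with the knockout at E14, and 0.209% rose and 1.12% fell at E11. Ratios within 10% of 1 were found for 4 of the 9 genes at E14 and for 4 at E11. The share of all genes within 10% of 1 was not counted, so these counts show nothing particular to the 9. At E14, the 4 upper layer genes were above 1, and 4 of the 5 deep layer genes were below it, of which *Bcl11b* and *Sox5* turned above 1 with upper-quartile scaling. The median log2 ratio was 0.25 for the upper layer genes and -0.11 for the deep layer genes. The median of all genes was -0.079. All 4 upper layer genes and 2 of the 5 deep layer genes were above that median. At E11 the medians were 0.19 and 0.057, with 0.059 for all genes, and 3 of the 4 upper layer genes and 1 of the 5 deep layer genes were above the median of all genes. With upper-quartile scaling both deep layer medians changed sign, to 0.037 at E14 and -0.067 at E11.

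**Figure D2:**
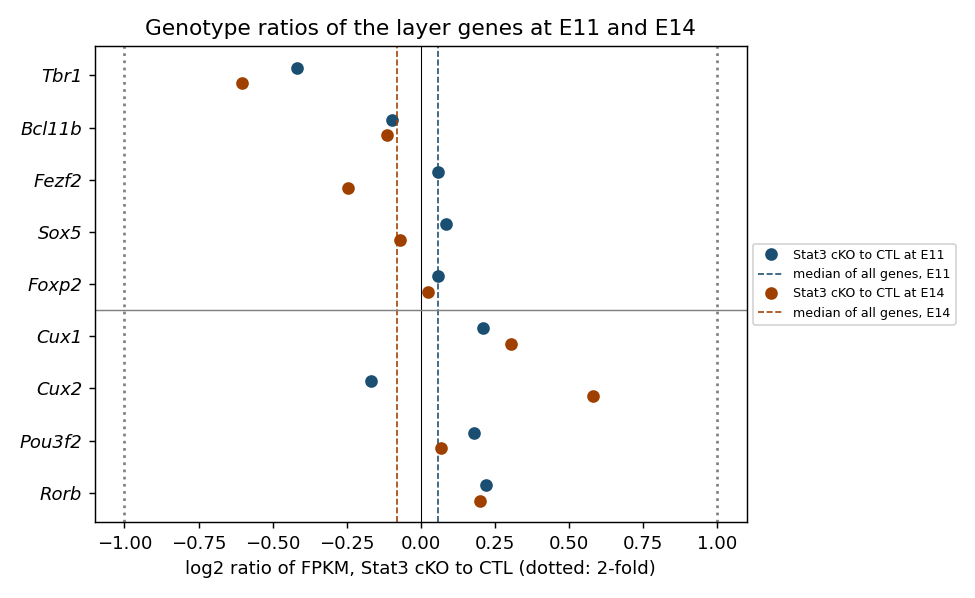
Log2 ratio of FPKM, *Stat3* cKO to CTL, for each gene at E11 (blue) and E14 (orange), with the medians of all genes as dashed lines and 2-fold as dotted lines. No point reaches 2-fold, *Tbr1* lies furthest to the left at both stages, and *Cux2* changes sides from E11 to E14.

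*Tbr1*, a T-box gene (chromosome 2, 61642509 to 61652170), had the lowest genotype ratio of the 9 at both stages. It had 6.63 FPKM (CTL) and 4.97 (*Stat3* cKO) at E11, and 5.84 and 3.84 at E14. Both *Stat3* cKO libraries lay below both CTL libraries, at 0.749 times CTL at E11 and 0.658 times CTL at E14. The log2 ratio of -0.60 at E14 has an estimated counting error of 0.12 (SE), which leaves out any variation between cultures. As low a log2 ratio was seen in 7.12% of all genes at E14 and in 6.40% at E11.

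*Cux2*, a cut homeobox gene of upper layer neurons and their precursors, is listed on chromosome 5 from 122310224 to 122497834. It had 2.80 FPKM at E11 and 2.78 at E14 in CTL, against 2.49 and 4.17 in *Stat3* cKO. A single library, E14 *Stat3* cKO, stood above the other 3, which were close to each other. Its ratio was 1.496 at E14 and 0.890 at E11, and 5.85% of all genes had as high a ratio at E14. The counting error of its log2 ratio of 0.58 at E14 was estimated at 0.079 (SE). Its stage ratio was 0.993 in CTL and 1.67 in *Stat3* cKO, the only one of the 9 whose log2 stage ratios differed in sign between genotypes.

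*Cux1* was 1.24 times CTL at E14 and 1.16 times at E11, and *Rorb* was 1.15 and 1.16 times CTL, both above 1 at each stage. *Pou3f2* was at 1.05 and 1.13, and *Foxp2* at 1.02 and 1.04. *Bcl11b* was below 1 at both stages, at 0.924 and 0.935. *Fezf2* was at 0.843 at E14 and 1.04 at E11, and *Sox5* at 0.953 and 1.06. In all, 4 genes were above 1 at both stages, 2 were below 1 at both, and 3 were on different sides. When set against the median of all genes instead of 1, *Fezf2* and *Foxp2* at E11 and *Sox5* at E14 changed sides. Their log2 differences from that median were only -0.00086, -0.0018 and 0.0096.

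The layer genes belong to families with other members in these libraries, and the stage ratios within a family often differed. The 3 FOXP genes looked up, *Foxp2* and its paralogs *Foxp1* and *Foxp4*, fell in both genotypes. *Foxp1* went from 13.8 FPKM in E11 CTL to 3.81 in E14 CTL, and from 15.3 to 4.18 in *Stat3* cKO. *Foxp4* went from 3.99 to 0.840 in CTL and from 4.80 to 0.998 in *Stat3* cKO. In the FEZF family, by contrast, *Fezf1* fell from 5.11 to 0.201 FPKM in CTL and from 7.25 to 0.336 in *Stat3* cKO, whereas *Fezf2* was higher at E14. *Rora* fell from 2.89 to 1.16 FPKM in CTL and from 3.02 to 1.05 in *Stat3* cKO while *Rorb* rose. Of the SOXD genes, *Sox6* rose from 5.16 to 12.4 FPKM in CTL and from 5.46 to 16.5 in *Stat3* cKO, and *Sox13* fell 2.88-fold and 3.28-fold.

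Of the POU3 genes, none rose 2-fold. *Pou3f3*, known as BRN1 and a partner of BRN2 in the upper layers, was higher than *Pou3f2* in every library, with 70.5 FPKM at E11 and 108.7 at E14 in CTL, while *Stat3* cKO had 77.4 and 117.8. Its stage ratio of 1.54 in CTL pointed away from the fall of *Pou3f2*. *Pou3f4* had 22.4 FPKM at E11 and 25.7 at E14 in CTL, and 25.6 and 31.7 in *Stat3* cKO. *Pou3f1* was at 8.41 and 6.48 FPKM in CTL and fell from 10.8 to 4.13 in *Stat3* cKO. *Bcl11a*, the paralog of *Bcl11b*, had 8.99 FPKM in E11 CTL and 7.45 in E14 CTL. *Eomes*, the T-box gene of intermediate progenitors, was at 10.7 and 8.50 in CTL and fell from 14.8 to 7.33 in *Stat3* cKO. Between genotypes, none of the 11 paralogs analysed passed 2-fold at either stage.

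**Figure D3:**
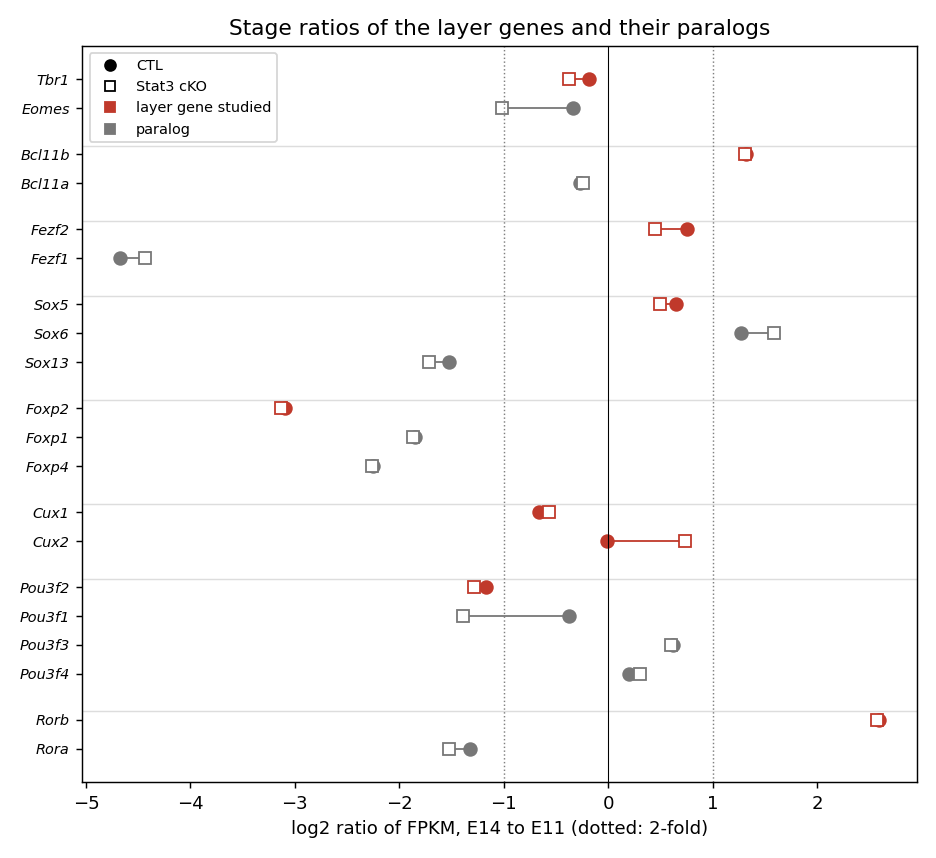
Log2 ratio of FPKM, E14 to E11, of the 9 layer genes (red) and their 11 analysed paralogs (grey), grouped by family, in CTL (filled circles) and *Stat3* cKO (open squares). Most pairs of symbols nearly coincide, while *Cux2*, *Pou3f1* and *Eomes* show gaps between the genotypes.

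The genotype ratios were also read in genes of the same layers outside the 9. Of 13 other deep layer genes analysed, 5 lay above the median of all genes at E14 and 4 at E11, and their own medians were -0.16 and -0.026 on the log2 scale. Of 12 other upper layer genes analysed, 4 lay above it at E14 and 2 at E11, with medians of -0.21 and -0.09. *Foxp1*, *Pou3f1* and *Pou3f3* are counted here and among the paralogs. *Bhlhe22*, a repressor active in upper layer and callosal neurons, rose from 7.05 to 65.2 FPKM in CTL and from 7.24 to 44.8 in *Stat3* cKO. *Mef2c* rose from 2.73 to 20.9 FPKM in CTL and from 2.19 to 16.5 in *Stat3* cKO. None of the other deep and upper layer genes passed 2-fold between genotypes.

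From E11 to E14 4 of the 13 other deep layer genes rose and 3 fell in CTL, with the same numbers in *Stat3* cKO. *Etv1*, an ETS factor of the deep layers, rose from 4.45 to 20.3 FPKM in CTL, *Nfib* from 14.8 to 51.7, *Pcp4* from 5.21 to 21.1 and *Lmo3* from 14.8 to 29.9. *Crym* fell from 43.6 to 5.77 FPKM in CTL and from 54.0 to 3.98 in *Stat3* cKO, and *Nxph4* fell from 2.13 to 0.156 in CTL. Of the other upper layer genes, 4 of 12 rose and none fell in CTL, and 5 rose and 1 fell in *Stat3* cKO. *Cdh10*, an adhesion gene, was among those that rose. *Plxnd1* just passed 2-fold in *Stat3* cKO, from 1.62 to 3.24 FPKM (2.004-fold). In CTL it went from 2.10 to 3.70, which at 1.76-fold was short of it. Among 14 regulators of cortical area and projection fate, 2 rose and 3 fell in each genotype, and none passed 2-fold between genotypes. *Nr2f2*, one of these, fell from 37.0 to 3.72 FPKM in CTL and *Auts2* from 5.65 to 2.06. *Tle3* fell from 27.9 to 12.1 FPKM in CTL, and *Hdac1* from 28.8 to 13.6 in *Stat3* cKO.

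**Figure D4:**
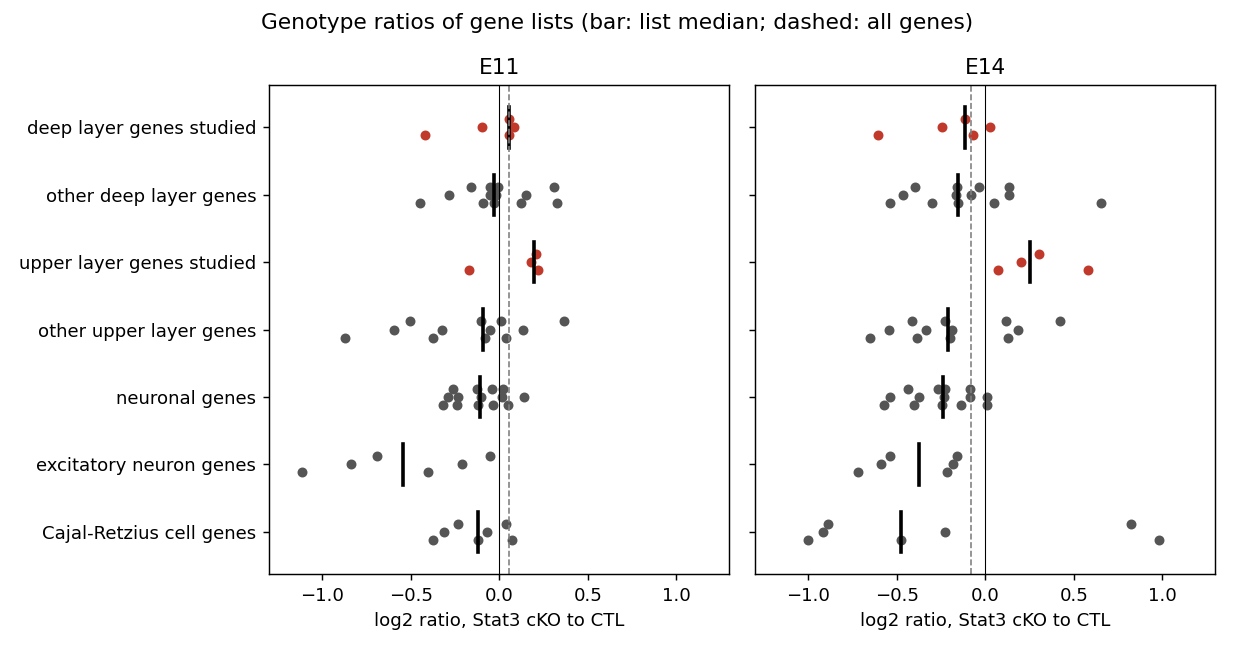
Log2 ratios of *Stat3* cKO to CTL at E11 (left) and E14 (right), with 1 point for each gene, black bars for list medians, red for the genes studied and the dashed line for all genes. At E14 the 4 upper layer genes studied lie right of the line, while the medians of the other upper layer genes, the neuronal genes and the excitatory neuron genes lie left of it.

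Marker lists of neurons and other cells were set beside the 9 genes. Of 14 neuronal genes, 2 lay above the median of all genes at E14 and 1 at E11, with list medians of -0.24 and -0.11 on the log2 scale of the genotype ratio. All 6 markers of excitatory cortical neurons were below 1 at both stages, with medians of -0.38 at E14 and -0.55 at E11, and *Tbr1* lay on the same side as all of these. Against the neuronal median, the log2 ratio of *Tbr1* was at -0.36 at E14 and -0.31 at E11, *Bcl11b* was at 0.12 and 0.012, and *Fezf2* at -0.0067 and 0.17. *Cux2* was at 0.82 at E14 and -0.059 at E11. *Sox5*, *Foxp2*, *Cux1*, *Pou3f2* and *Rorb* were above the neuronal median at both stages. They lay from 0.17 (*Sox5*) to 0.55 (*Cux1*) above it at E14, and from 0.17 (*Foxp2*) to 0.33 (*Rorb*) at E11. Of 7 analysed markers of Cajal-Retzius cells, which also use TBR1, 5 were below 1 at each stage, with *Calb2* at E14 at 6.93 FPKM in *Stat3* cKO against 13.9 in CTL and *Reln* at 4.44 against 8.38. *Ebf2* and *Lhx5*, with ratios above 1, had 0.208 against 0.105 and 1.01 against 0.572. Along with *Ebf3* and *Lhx1*, both with ratios below 1, they averaged under 1 FPKM at E14 and entered the count only through their E11 levels, so the E14 count rests on *Calb2*, *Reln* and *Cxcr4*. Of all genes, 7475 of 12430 were below 1 at E14 and 4753 at E11. The part of these cells in the level of *Tbr1* was not tested.

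Marker lists of progenitors and of some other cells lay above 1 at E14, as the upper layer genes did. Of 10 progenitor genes, 8 were above 1 (median log2 ratio 0.26), and so were 6 of 8 intermediate progenitor genes (0.26). Also above 1 were 11 of 12 ventral telencephalon genes (0.30), 6 of 8 oligodendrocyte lineage genes (0.59) and the 5 analysed astrocyte genes (0.80). The remaining astrocyte gene, *Gfap*, had too low a mean to be analysed and went from 0.901 FPKM in CTL to 0.186 in *Stat3* cKO. These counts take in genes that are near 0 at E14 and entered through their E11 levels, such as *Gjb6* with 0.1195 and 0.1443 FPKM and *Neurog1* with 0.240 and 0.318. At E11 the counts were 8 of 10, 6 of 8, 6 of 12, 6 of 8 and 2 of 5. Of all genes, 4955 of 12430 were above 1 at E14 and 7677 at E11. The part of these cells in the ratios of *Cux1*, *Cux2*, *Pou3f2* and *Rorb* was not tested.

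Markers of progenitors were present in all 4 libraries. All 10 progenitor genes were at 1 FPKM or more in each library, with summed levels of 1606 and 1767 at E11 and 7523 and 8167 at E14. *Vim* had the largest share of the sums at E11, with 582.1 and 609.1, and *Fabp7* at E14, with 5245 and 5929. From E11 to E14 in CTL, 3 of the 10 progenitor genes rose and 2 fell. All 6 dorsal telencephalon genes were also at 1 FPKM or more in each library, with sums from 116.9 to 123.5. Its members moved apart, however, since *Emx1* rose from 10.1 to 24.2 FPKM and *Pax6* fell from 44.2 to 14.6 in CTL. Markers of the ventral telencephalon, where striatum and interneurons arise, summed to between 74.7 and 98.6 FPKM. The 12 striatal genes in the files summed to 149.3 and 139.0 FPKM at E11 and 80.0 and 91.1 at E14, and *Rarb* alone went from 66.0 and 63.1 to 2.83 and 2.93, while *Meis2* rose from 25.2 to 63.1 in CTL. The midbrain and hindbrain list, of which 3 of 14 genes were analysed, summed to 44.2 and 45.4 at E11 and 5.54 and 5.75 at E14. Of these sums *Otx2*, which is also a forebrain gene, gave 31.9 and 35.0 at E11 and 3.56 and 4.78 at E14, and *Hoxb2* was at 0 in E11 *Stat3* cKO.

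Marker lists of other cells also differed between stages. The 8 mesenchymal genes summed to 743.5 and 692.8 FPKM at E11, led by *Col1a2* with 227.3 and 215.2, and to 9.30 and 6.65 at E14. All 8 fell at least 2-fold in both genotypes, as *Foxp2* did, and none was at 0 in any library. The 8 oligodendrocyte lineage genes went from 75.9 and 97.1 FPKM at E11 to 567.4 and 550.9 at E14, led there by *Olig1*. The 8 microglial genes summed to at most 9.58 FPKM, with *Aif1* at 0 in E14 CTL, and the 6 endothelial genes to at most 4.70. Of the 4 erythroid genes in the files the sum was 24.6 FPKM in E11 CTL and at most 3.62 elsewhere. The 6 astrocyte genes had sums of 44.0 and 30.0 at E11 and 277.8 and 383.6 at E14, and the 8 intermediate progenitor genes from 227.6 to 310.3 over the libraries. The part of these cell types in the stage ratios of *Foxp2*, *Rorb*, *Pou3f2* and *Bcl11b* was not tested.

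**Figure D5:**
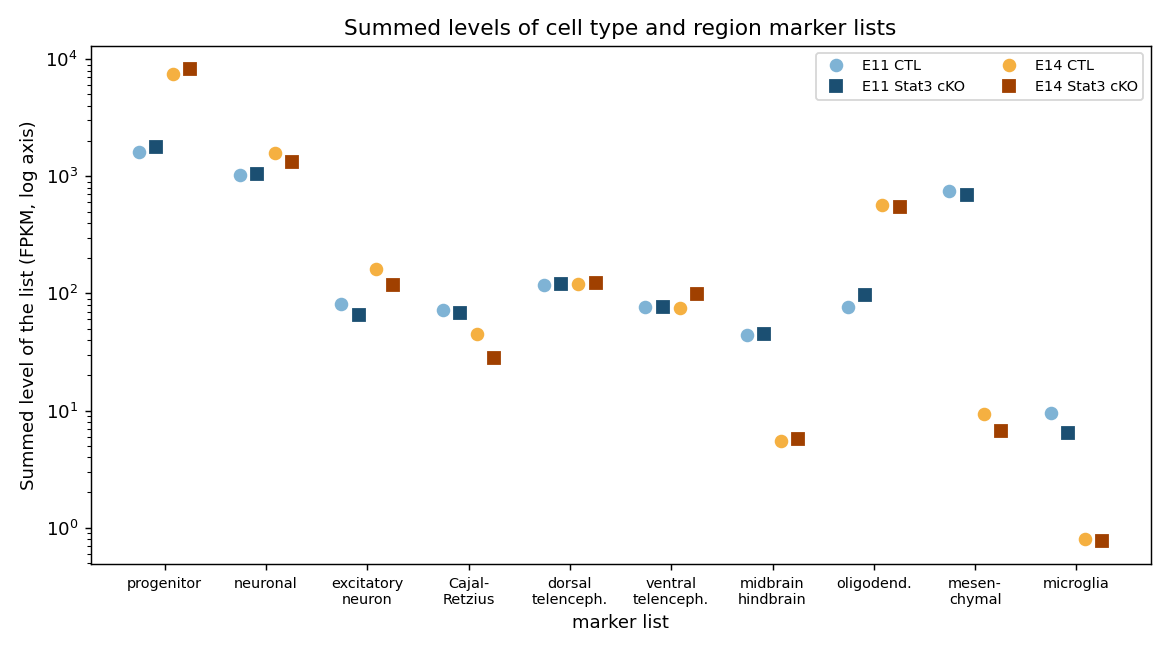
Summed FPKM of 10 marker lists on a log axis, with 1 point for each library (circles CTL, squares *Stat3* cKO, blue E11, orange E14). The mesenchymal sum is 743.5 and 692.8 at E11 against 9.30 and 6.65 at E14, whereas the dorsal telencephalon sums, which add up genes that rose and genes that fell, lie between 116.9 and 123.5.

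The genes with patterns most like each of the 9 were looked up by the distance between log2 FPKM values over the 4 libraries, each centred on its own mean, among 12418 genes. With 4 libraries a small distance is easily met, and the number of genes within 0.25 differed widely, from 5 for *Rorb* and 15 for *Foxp2* to 1273 for *Fezf2* and 1444 for *Sox5*. *Rorb* was closest to *Mc4r* at a distance of 0.14, followed by *Ckb* and *Hs3st2*. *Foxp2* was closest to *Adamts20* at 0.081, followed by *Ifitm2* and *Emilin1*. *Tbr1* was closest to *1700017B05Rik* at 0.041, then to *B230120H23Rik* and *Clic4*, with 39 genes within 0.25. *Cux2* was closest to *Dpp6* at 0.049, then to *Dand5* and *Pla2g4a*, with 116 genes within 0.25. *Dpp6* had 5.10 FPKM in both CTL libraries, 4.71 in E11 *Stat3* cKO and 7.86 in E14 *Stat3* cKO, a likeness that its choice as the nearest gene fixes. *Cux1* was closest to *Ldb1*, *Bcl11b* to *Synpr*, *Fezf2* to *Adrbk1* and *Sox5* to *Ndufa8*.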

How the data were processed

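RNA-seq was carried out by the authors on 4 Illumina libraries, 1 in each group. The authors checked reads with FastQC, aligned them with TopHat and deposited 1 FPKM value per gene and library from Cufflinks, which corrects for transcript length and mapped fragments. Any further scaling is not stated. The submitters' processing notes list Bowtie 0.12.2 and the builds mm8 and mm9 with no role, so gene positions are printed as listed. FPKM values are not counts, and no count test was run.

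Groups follow the sample titles. Entries averaging 1 FPKM or more over the libraries were kept (12449 of 21091). Levels were divided with no pseudocount added, and an entry at 0 in either library got no ratio. No other entry overlaps the 9 loci. Mapped fragments were estimated from the first peak of FPKM times length over genes with a single GENCODE M21 transcript of at least 1000 bases. The estimate for CTL and *Stat3* cKO was 48200000 and 39100000 fragments at E11, and 41300000 and 45600000 at E14. Counting errors derived from it cover counting only and take the shortest protein-coding transcript. The ratio, call and depth steps were tested on simulated data. Alternatives were pseudocounts, scalings, filters and thresholds.

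The members, gene lists and rule for naming genes were chosen with earlier results of these data known. The rule took in the 9 genes, *Stat3*, *Ddx3y*, paralogs, genes of the layer and regulator lists past 2-fold, the 3 nearest patterns per gene, and leading or absent markers. Some genes it takes in are not reported here. Beyond it, *Reln*, *Calb2*, *Ebf2*, *Lhx1*, *Lhx5*, *Meis2*, *Gfap*, *Gjb6*, *Neurog1*, *Emx1*, *Pax6* and *Dpp6* were given values after these had been seen. Promoter sequences came from RefSeq (GRCm38.p6). The windows matched 8 of the 9 symbols. Python 3.11.15 with numpy 2.4.6, pandas 2.3.3, scipy 1.17.1 and matplotlib 3.10.9 was used.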

Additional observations from a re-analysis of the deposited data

Results flagged for a closer look

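For 3 genes the ratio of *Stat3* cKO to CTL lay on opposite sides of 1 at E11 and E14, a difference between stages that was not tested, since each group had 1 library. For *Cux2* the log2 ratio was higher at E14 than at E11 by 0.75. For *Fezf2* the change from E11 to E14 was -0.30, and for *Sox5* it was -0.16. With upper-quartile scaling, *Fezf2* was below 1 at both stages, and *Sox5* had a log2 ratio of 0.083 at E14 and -0.037 at E11.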

How the results depend on the processing

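Each of the 36 log2 ratios of single genes was recomputed under 4 other settings, and a value was taken as unmoved within 0.25. None of the ratios past 2-fold changed sign under these settings. A pseudocount of 0.1 moved none of the 36, a pseudocount of 1 moved 4 and upper-quartile scaling moved 9. Upper-quartile scaling took 0.34 off every log2 ratio of E14 to E11 in CTL, which left the median of the deep layer genes at 0.32 and that of the upper layer genes at -0.67. It left *Bcl11b* in CTL at 0.99, under 2-fold, added 0.15 to the genotype ratios at E14 and turned the deep layer median there to 0.037. At E11 the deep layer median was -0.067 with that scaling and -0.0018 when all genes were centred on their median. The side of 1 also changed with a scaling for *Bcl11b* and *Sox5* at E14 and for *Fezf2*, *Sox5* and *Foxp2* at E11. With the threshold at 1.5, 1 gene (*Tbr1*) passed between genotypes at E14, with *Cux2* just short at 1.496. At that threshold 7 passed between stages in CTL and 5 in *Stat3* cKO. With it at 3, 2 genes passed between stages in each genotype. The shares of all genes past 1.5 and 3 were not counted, so these counts have no background beside them. At the 2-fold threshold, a minimum mean of 5 FPKM or no minimum changed none of the 4 counts. No paired analysis was possible because each group has 1 library and the labels give no replicate numbers. Without replicates, no error other than that of counting could be estimated for any ratio here.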
